A study of Mus musculus with 4 samples.

Results

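Cytokine receptor chains decide which outside signals a CD4+ T cell can receive. The genes described here encode 10 such chains outside the IL-2 receptor: Il7r, Il4ra, Il6ra, Il6st, Il21r, Il12rb1, Il12rb2, Il18r1, Tgfbr1 and Tgfbr2. They were taken by gene symbol from tables of 23238 symbols. All 10 were present, and all 10 passed the filter on low counts, among 11464 genes tested. The samples were CD4+ T cells of C57BL/6j mice, 2 libraries from wild-type (WT) and 2 from PDK4 KO animals, where PDK4 is a mitochondrial kinase that inhibits pyruvate dehydrogenase. In both genotypes alike, naive cells from spleen and lymph nodes were sorted with magnetic beads and activated in vitro through CD3 and CD28 with IL-2 for 48 hours. The series set the genotypes side by side to ask how gene expression differs without PDK4. Which part of Pdk4 was deleted, in which cells, and the age of the mice are not given in the labels. No unstimulated cells were measured, so all levels belong to activated cells.

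Most interleukin receptors are pairs of chains without enzyme activity of their own. Their inner parts hold Janus kinases, which phosphorylate STAT transcription factors once a ligand brings the chains together. IL-7 supports survival of resting T cells, and activated T cells are known to lower its receptor. IL-4, IL-12 and IL-6 steer helper cells toward the Th2, Th1 and Th17 or follicular fates. IL-18 acts through a Toll-like adaptor pathway, and TGF-beta through receptor kinases that phosphorylate SMAD proteins.

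The members fall into families that can be seen in their coding sequences. Class I cytokine receptors carry a motif of tryptophan and serine, known as WSXWS, in their ligand-binding part. In the coding strand and in frame, the motif reads TGG, a serine codon (TCN, AGC or AGT), any codon (NNN), TGG and a serine codon. It was found once in each of the 7 class I chains Il7r, Il4ra, Il6ra, Il6st, Il21r, Il12rb1 and Il12rb2, and in 0 of the other 3 members. Among the longest complete coding sequences of 21408 protein-coding genes, 70 (0.327%) held it. Capitals mark the motif with 15 bases on either side, from GENCODE vM21 transcripts (GRCm38). The search fixed the tryptophan codons and the serines, so only the choice of serine codon and the central codon were free to differ.
Il7r: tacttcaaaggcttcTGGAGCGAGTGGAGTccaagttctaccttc
Il4ra: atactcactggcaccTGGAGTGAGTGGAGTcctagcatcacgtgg
Il21r: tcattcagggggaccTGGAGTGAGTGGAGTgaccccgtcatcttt
Il6ra: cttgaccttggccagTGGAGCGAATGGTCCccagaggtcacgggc
Il6st: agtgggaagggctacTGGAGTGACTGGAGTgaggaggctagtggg
Il12rb1: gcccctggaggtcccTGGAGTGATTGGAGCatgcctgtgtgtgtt
Il12rb2: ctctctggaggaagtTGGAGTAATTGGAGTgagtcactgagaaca

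The motifs lie at chr15:9511151-9511165 (minus strand) for Il7r, chr7:125571554-125571568 (plus) for Il4ra and chr7:125628998-125629012 (plus) for Il21r. They lie at chr3:89885930-89885944 (minus) for Il6ra, chr13:112490597-112490611 (plus) for Il6st, chr8:70813742-70813756 (plus) for Il12rb1 and chr6:67351270-67351284 (minus) for Il12rb2. Each is within a single coding exon. The 15 bases of Il4ra and Il21r were the same, and these genes lie next to each other on chromosome 7, 24.0 kb apart with 0 protein-coding genes between them. The central codon was GAG in Il7r, Il4ra and Il21r, the chains that pair with the common gamma chain Il2rg. It was GAA in Il6ra, GAC in Il6st, GAT in Il12rb1 and AAT in Il12rb2.

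Total counts lay between 8837810 and 9739624 per library, and 3 counts, taken as the floor of detection, corresponded to 0.308 to 0.339 CPM, the count scaled to its library's total. The libraries were made with a kit that reads the 3' end of transcripts, so counts carry no length factor. Forms that share a 3' end are counted together. The annotation used in counting was not given, so levels and ratios set between different genes are uncertain as transcript numbers. Pdk4 itself had 1 and 0 counts in WT and 0 and 2 counts in PDK4 KO, all under the floor, so the labels could not be checked with it. The CD4+ T cell markers Cd4 (253 ± 2.13 and 260 ± 13.0 CPM in WT and PDK4 KO, SD, n = 2 each) and Cd3e (67.3 ± 0.695 and 69.9 ± 7.84) were present in all libraries. Of 9 tested CD4+ T cell markers, the adhesion receptor Cd2 fell (-0.41, adjusted p = 0.000107) and Cd5, an inhibitor of T cell receptor signals, rose (0.29, 0.0341). The rise of Cd5 was not called with upper quartile scaling (0.0716), nor without WT replicate 2 (0.267), PDK4 KO replicate 1 (0.0768) or PDK4 KO replicate 2 (0.332). The other 7 did not pass, with Cd3d at -0.16 and Cd3g at -0.28 (adjusted p = 0.273 and 0.359). Summed levels of B cell markers were 145 and 149 CPM in WT and 28.8 and 31.3 in PDK4 KO, with Pax5 at 0 counts. Of 12 tested markers, 10 were lower past the test, where 1.21% of all tested genes were. With a stricter filter on low counts, 5 were lower past the test. Some, such as Cd22 (36 and 55 counts in WT, 0 and 0 in PDK4 KO), entered the test only through WT. Their calls are therefore no independent support for a fall. For CD8 T cells and NK cells the sums were 630 and 644 against 440 and 401 CPM, with Gzmk at 0 counts. In that list 3 of 16 tested markers were lower past the test, namely Gzma, Klrc1 and Fcer1g (2 without WT replicate 2 and 1 without PDK4 KO replicate 1). Gzma alone went from 219 ± 0.303 to 63.7 ± 17.6 CPM, while Nkg7 was at 122 ± 16.4 and 122 ± 4.16 CPM. Myeloid markers summed to 150 and 145 CPM in WT and 172 and 182 CPM in PDK4 KO, most of it Cst3 (115 ± 10.4 and 143 ± 0.816 CPM). Of these, 0 of 7 tested passed (2 at an unadjusted p under 0.05), and Mpo, Siglech and Clec9a were at 0. Whether replicates are separate mice or cultures is not stated in the labels, and the p-values therefore reflect only the spread of these libraries, possibly technical.

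No receptor chain passed the test between genotypes. By the quasi-likelihood test of edgeR and Benjamini-Hochberg adjustment over all genes, 0 of the 10 chains passed an adjusted p of 0.05 in either direction, where 2.66% of all tested genes did (1.45% upward and 1.21% downward). At an unadjusted p under 0.05 there were 3 chains, Il12rb1, Il4ra and Il7r, all with lower means in PDK4 KO, where 13.5% of all genes had such a p. By limma-voom and by DESeq2, 0 chains passed as well. The means of 7 chains were lower in PDK4 KO and those of 3 were higher, with a median log2 fold change of -0.14 over the 10 chains and of 0.000412 over all tested genes. WT and PDK4 KO libraries were fully separate for 6 chains (Il7r, Il4ra, Il21r, Il12rb1, Tgfbr1 and Tgfbr2), as they were for 43.4% of all tested genes. B cells also carry Il4ra and Il21r, and CD8 T cells Il7r. Most tested markers of B cells, and 3 of CD8 T or NK cells, were lower past the test, as given above. Cd8a and Cd8b1 of CD8 T cells did not pass (-2.52 and -0.30, adjusted p = 0.119 and 0.676). The part of these cells in the values of the chains was not tested. In bulk RNA, fewer cells of a type and less RNA per cell cannot be told apart.

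**Figure D1:**
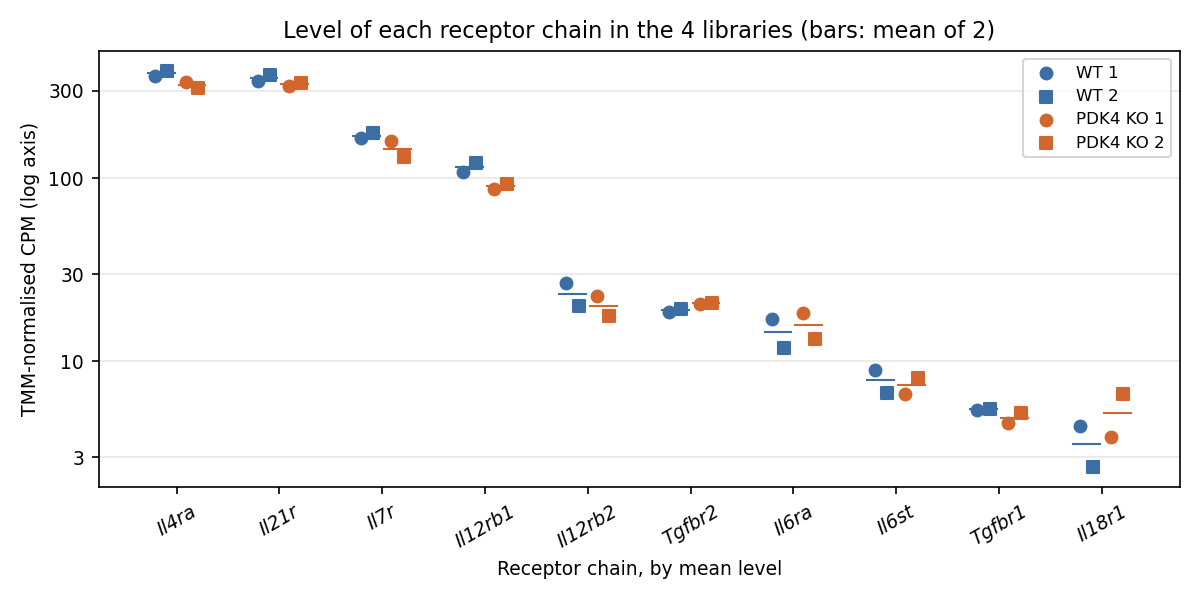
Level of each receptor chain in TMM-normalised CPM on a log axis, with 1 point per library, blue for WT, orange for PDK4 KO, and short bars for the mean of 2 libraries. Il4ra and Il21r are at the top at 312 to 387 CPM, Il7r and Il12rb1 follow between 87.4 and 176 CPM, and the other 6 chains lie between 2.64 and 26.8 CPM.

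The mean over the 4 libraries ran from 4.40 CPM for Il18r1, at the bottom, to 348 CPM for Il4ra. Il4ra, Il21r, Il7r and Il12rb1 together gave 92.3% and 94.1% of the members' counts in WT and 92.1% and 92.4% in PDK4 KO. The summed counts of all 10 chains were 0.105% and 0.110% of the library in WT, and 0.0980% and 0.0947% in PDK4 KO. Il4ra had a mean level above that of 96.6% of tested genes, while Il18r1 was above only 16.9%. In WT the order ran Il4ra, Il21r, Il7r, Il12rb1, Il12rb2, Tgfbr2, Il6ra, Il6st, Tgfbr1 and Il18r1, and only the neighbours Il4ra and Il21r overlapped between their libraries. In PDK4 KO the order was Il21r, Il4ra, Il7r, Il12rb1, Tgfbr2, Il12rb2, Il6ra, Il6st, Il18r1 and Tgfbr1. There the neighbours Il21r and Il4ra, Tgfbr2 and Il12rb2, Il12rb2 and Il6ra, and Il18r1 and Tgfbr1 overlapped. The pairs Il4ra and Il21r, Il12rb2 and Tgfbr2, and Tgfbr1 and Il18r1 stood in opposite order in the genotypes. The first pair overlapped in both genotypes, and the other pairs in PDK4 KO but not in WT.

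Among the chains that pair with Il2rg, Il7r (chr15:9505788-9530176, minus strand, GRCm38) encodes the IL-7 receptor alpha chain. It was at 165 and 176 CPM in WT replicates 1 and 2, and at 159 and 130 CPM in PDK4 KO replicates 1 and 2. Both PDK4 KO libraries were below both WT libraries, but the first was close to WT and the second was the lowest of all. The log2 fold change was -0.24 (SE 0.0987, adjusted p = 0.261), with a 95% interval of -0.44 to -0.04, or 0.738 to 0.976 of the WT level. Without PDK4 KO replicate 2 it was -0.10, and without PDK4 KO replicate 1 it was -0.39.

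Il4ra (chr7:125552120-125579474, plus strand), the chain that binds IL-4 and signals through STAT6, was the most abundant member in WT. Its levels were 359 and 387 CPM in WT and 335 and 312 CPM in PDK4 KO, so the groups did not overlap. The log2 fold change was -0.21 (SE 0.0769, adjusted p = 0.184, 95% interval -0.36 to -0.05), and did not pass the test. An antisense gene overlaps Il4ra in the annotation, and since no source used here says whether counting was stranded, its reads cannot be told apart from those of Il4ra. Il21r (chr7:125603429-125633570, plus strand), its neighbour on the chromosome, encodes the IL-21 receptor. It was at 339 and 365 CPM in WT and at 318 and 332 CPM in PDK4 KO. The PDK4 KO libraries were again below the WT libraries, by a smaller margin, at -0.12 on the log2 scale (SE 0.0765, adjusted p = 0.557). Its 95% interval ran from 0.829 to 1.03 of the WT level, the narrowest of the 10 chains together with that of Il4ra.

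The partner Il2rg, which belongs to the IL-2 receptor, was at 791 ± 29.0 CPM in WT and 762 ± 1.91 CPM in PDK4 KO (n = 2 each, log2 fold change -0.05, adjusted p = 0.801). In the annotation Gm20489, a protein-coding gene on the same strand, overlaps Il2rg. Its reads may sit in the Il2rg count, so ratios to Il2rg are uncertain. Counts of Il7r per count of Il2rg were 0.214 and 0.217 in WT and 0.209 and 0.171 in PDK4 KO. Those of Il4ra per count of Il2rg were 0.466 and 0.476, and 0.440 and 0.408. Il2rg had more counts than Il7r, Il4ra and Il21r in every library. Of the other IL-2 receptor chains, Il2ra was at a log2 fold change of -0.21 and just missed the threshold in edgeR (adjusted p = 0.0557). It passed in 7 of 13 alternatives, among them DESeq2 (0.0303), limma-voom (0.0146) and the replicate block (0.0469). Il2rb was at -0.06 (0.814).

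Il12rb1 (chr8:70808449-70821424, plus strand) had the smallest p of the 10 chains. It encodes the chain shared by the IL-12 and IL-23 receptors, and binds the kinase Tyk2. It was at 109 and 121 CPM in WT and at 87.4 and 93.4 CPM in PDK4 KO. Both PDK4 KO libraries were below both WT libraries, and the gap between the groups was larger than the difference within either group. The log2 fold change was -0.35 (SE 0.108, adjusted p = 0.0859, 95% interval -0.57 to -0.13), which did not pass. With a stricter filter on low counts, which left 8199 genes to adjust over, it was -0.36 with an adjusted p of 0.0498 and passed. Its adjusted p lay between 0.0498 and 0.498 over the alternatives.

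Il12rb2 (chr6:67291318-67376188, minus strand), the IL-12 specific chain through which STAT4 is activated, was lower in level. It was at 26.8 and 20.1 CPM in WT and at 22.7 and 17.6 CPM in PDK4 KO. The groups overlapped, and the first library of each genotype was above the second. The log2 fold change was -0.22 (SE 0.216, adjusted p = 0.742, 95% interval -0.66 to 0.23). The 3' end of Il12rb2 overlaps that of Serbp1, a gene on the plus strand that ends at position 67297736 and that had 17243 to 20480 counts per library against 162 to 236 for Il12rb2. Strand use is unknown here, so that Serbp1 reads may sit in the Il12rb2 count and its value is uncertain. Il12rb1 had 4.05 and 6.04 counts per count of Il12rb2 in WT and 3.85 and 5.30 in PDK4 KO. Il23r, which pairs with Il12rb1 for IL-23, had 2 and 9 counts in WT and 5 and 1 in PDK4 KO, too few for the test.

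**Figure D2:**
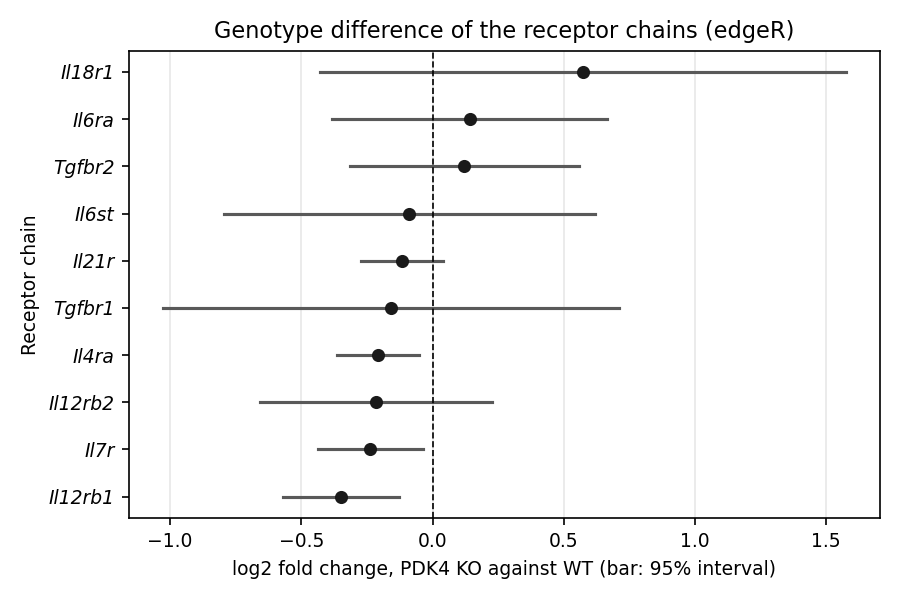
Log2 fold change of each receptor chain, PDK4 KO against WT, from edgeR, with bars for the 95% interval of 2 libraries against 2. The intervals of Il12rb1, Il7r and Il4ra lie below 0 before adjustment over all genes, and that of Il18r1 is among the widest, from -0.43 to 1.57.

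The IL-6 receptor chains were low. Il6ra (chr3:89864059-89913196, minus strand) binds IL-6 and, in a shed form, can also serve cells that lack it. It was at 16.9 and 11.8 CPM in WT and at 18.4 and 13.3 CPM in PDK4 KO. The groups overlapped, and the difference between replicates (-0.52 and -0.47 on the log2 scale, the second less the first) exceeded that between genotypes (0.14, SE 0.257, adjusted p = 0.886). An annotated antisense gene overlaps Il6ra as well. Il6st (chr13:112464070-112510086, plus strand) encodes the signalling chain shared by IL-6, LIF, oncostatin M and IL-27. It was at 8.99 and 6.76 CPM in WT and at 6.65 and 8.16 CPM in PDK4 KO, with overlapping groups (-0.09, SE 0.346, adjusted p = 0.958). Its 95% interval spanned 0.577 to 1.53 of the WT level, from 64 to 79 counts per library, before any adjustment over all genes. Counts of Il6ra per count of Il6st were 1.89 and 1.75 in WT and 2.77 and 1.63 in PDK4 KO, again overlapping.

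Il18r1 (chr1:40465552-40500854, plus strand), the ligand-binding chain for IL-18 and of the immunoglobulin-like family, was the lowest member in WT. It was at 4.44 and 2.64 CPM in WT and at 3.89 and 6.64 CPM in PDK4 KO, from 25 to 61 counts. The second PDK4 KO library was highest and the second WT library lowest, and the groups overlapped (0.57, SE 0.492, adjusted p = 0.684), and the log2 fold change ran from 0.14 to 0.99 with 1 library left out. Its partner Il18rap lies 14.5 kb away on chromosome 1 and was at 3.72 ± 0.117 and 3.37 ± 0.00103 CPM (n = 2 each, adjusted p = 0.956). Counts of Il18r1 per count of Il18rap were 1.22 and 0.694 in WT and 1.15 and 1.97 in PDK4 KO.

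The TGF-beta receptor is built from the ligand-binding kinase Tgfbr2 and the kinase Tgfbr1, which it activates. Tgfbr2 (chr9:116084293-116175360, minus strand) was at 18.7 and 19.4 CPM in WT and at 20.7 and 20.8 CPM in PDK4 KO. These groups did not overlap, yet the difference was small at 0.12 on the log2 scale (SE 0.214, adjusted p = 0.88). Tgfbr1 (chr4:47353222-47414931, plus strand) was at 5.46 and 5.50 CPM in WT and at 4.60 and 5.22 CPM in PDK4 KO (-0.16, SE 0.427, adjusted p = 0.93). The PDK4 KO libraries were both lower, by less than the interval could resolve. Tgfbr1 had 45 to 52 counts per library, and its interval spanned 0.491 to 1.64 of the WT level. Tgfbr2 had 3.42 and 3.54 counts per count of Tgfbr1 in WT and 4.49 and 3.98 in PDK4 KO. These ratios were higher in both PDK4 KO libraries, but 2 libraries against 2 cannot give an exact two-sided permutation p under 0.333, so no test was made.

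**Figure D3:**
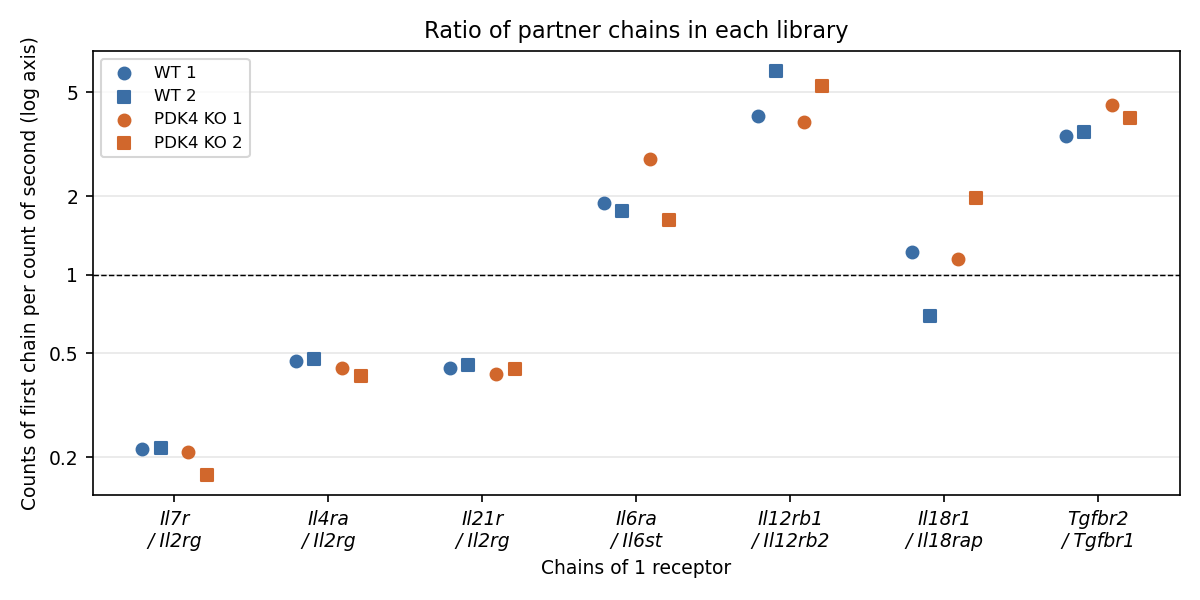
Counts of 1 chain per count of its partner in each library on a log axis, blue for WT and orange for PDK4 KO, with the dashed line at equal counts. The chains that pair with Il2rg lie below 0.5, and Il12rb1 and Tgfbr2 exceed their partners by 3.42 to 6.04 times.

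While no receptor chain passed the test, 2 ligands of these receptors did. Of 18 ligand genes, 10 had enough counts to test, of which 1 rose and 1 fell, with a median log2 fold change of 0.31. Over all tested genes, 1.45% rose and 1.21% fell. The ligand list, like the others, was chosen with earlier results of these data known. Il23a, the subunit that makes IL-23 and signals through Il12rb1 with Il23r, had 428 and 459 counts in WT and 948 and 933 in PDK4 KO. It rose by 1.03 on the log2 scale (SE 0.122, adjusted p = 8.35e-07), with 48.6 ± 0.119 CPM in WT and 99.2 ± 3.24 CPM in PDK4 KO (n = 2 each). Il21, the ligand of Il21r, had 626 and 783 counts in WT and 312 and 305 in PDK4 KO, and fell by 1.24 on the log2 scale (SE 0.14, adjusted p = 3.64e-07). Both changes kept their direction and their call in all 13 alternatives. Il12b, the subunit that IL-12 and IL-23 share, had 0 counts in every library, against a floor of 3 counts. Il18, the ligand of Il18r1, had 0 and 1 counts in WT and 12 and 20 in PDK4 KO. It did not pass in edgeR (adjusted p = 0.052, and 0.13 with no filter) or in DESeq2 (0.191). Il18 entered the test only through PDK4 KO, so its p is no independent support for a rise. Ebi3, a subunit of IL-27, was at 46.1 ± 8.76 and 59.5 ± 2.46 CPM (0.37, adjusted p = 0.221). Il7 had 0 or 1 counts, Il4 0 to 4 counts, and Tgfb1 9 to 13 counts per library.

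Of 10 Janus kinases and STAT factors behind the receptors 1 rose and 0 fell, where 2.66% of all tested genes changed, with a median log2 fold change of 0.04. Stat5a, which acts behind Il7r and the IL-2 receptor, rose from 161 ± 13.5 to 202 ± 9.83 CPM (0.34, adjusted p = 0.0369). It was not called with DESeq2 (0.0549), with upper quartile scaling (0.0732), without WT replicate 2 (0.373), without PDK4 KO replicate 1 (0.357) or without PDK4 KO replicate 2 (0.0842). Stat4, behind the IL-12 receptor, was at 42.6 ± 5.62 and 52.7 ± 8.80 CPM (0.31, adjusted p = 0.369), and Jak3, the kinase bound to Il2rg, was at 145 ± 5.43 and 127 ± 13.2 (-0.19, 0.403). Among 6 adaptors and kinases of IL-18 signalling 0 passed (1 at an unadjusted p under 0.05), with Irak2 at 0.26 (adjusted p = 0.357). Of 4 tested SMADs and cofactors 0 passed, and 0 had an unadjusted p under 0.05. In these lists limma-voom and edgeR gave the same counts of calls.

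Of 20 tested inhibitors of these pathways 0 rose and 1 fell, where 1.45% of all tested genes rose and 1.21% fell. The one was Socs3, a feedback inhibitor that binds Il6st, which went from 205 ± 5.64 to 161 ± 12.6 CPM (-0.35, adjusted p = 0.0244). It was not called without WT replicate 2 (0.172) or PDK4 KO replicate 1 (0.372). Socs1, which restrains Janus kinases, was at 126 ± 0.0976 and 105 ± 7.35 CPM (-0.27, adjusted p = 0.211). Pmepa1 and Skil, both induced by TGF-beta and both inhibitors of SMADs, had opposite signs, at -0.30 (adjusted p = 0.102) and 0.43 (0.181), with neither past the test. The median over the inhibitors was 0.14.

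Among 8 tested factors known to act on Il7r, Ets1 fell from 377 ± 25.3 to 277 ± 19.1 CPM (-0.44, SE 0.0795, adjusted p = 0.000552), and 7 did not pass. Over all tested genes, 1.45% rose and 1.21% fell. Of 16 tested genes that these receptors can induce in T cells, 1 rose and 3 fell, with a median of -0.22. The falls were Gata3, a Th2 factor induced through Il4ra and STAT6 (-0.76, adjusted p = 7.50e-07), Gadd45g, which IL-12 and IL-18 induce (-0.74, 0.000142), and Socs3. Gadd45b, induced by IL-18 and TGF-beta, rose from 32.6 ± 6.91 to 50.8 ± 0.591 CPM (0.64, adjusted p = 0.0204). Its call was lost with DESeq2 (0.0578), without WT replicate 1 (0.281), and without PDK4 KO replicate 1 (0.103) or 2 (0.101). In the same libraries 10 of 12 tested markers of B cells were lower past the test, and 5 with the stricter filter. Of CD8 T cell or NK cell markers, 3 of 16 were lower past the test. The part of either list in these values was not tested.

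Other cytokine receptor chains were also without calls. In a list of further cytokine receptor chains, 0 of 24 tested chains rose and 0 fell, with a median of -0.02. Over all tested genes, 2.66% passed. At an unadjusted p under 0.05 there were 7 of these chains, where 13.5% of all tested genes had such a p. Il15ra, which presents IL-15, was nearest the threshold at 5.04 ± 0.107 and 10.8 ± 2.21 CPM (1.10, adjusted p = 0.0874). Il10rb, Ifnar1 and Ifngr1 were at 0.42, 0.39 and -0.28 (adjusted p = 0.233, 0.187 and 0.218). Of 7 tested chains that pair with a member, 0 passed (1 at an unadjusted p under 0.05). That one was Crlf2, which joins Il7r in the receptor for TSLP, at 179 ± 12.2 and 154 ± 1.52 CPM (-0.21, adjusted p = 0.279). Crlf2 was higher than Il7r in WT replicate 1 and PDK4 KO replicate 2 and lower in the other libraries.

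**Figure D4:**
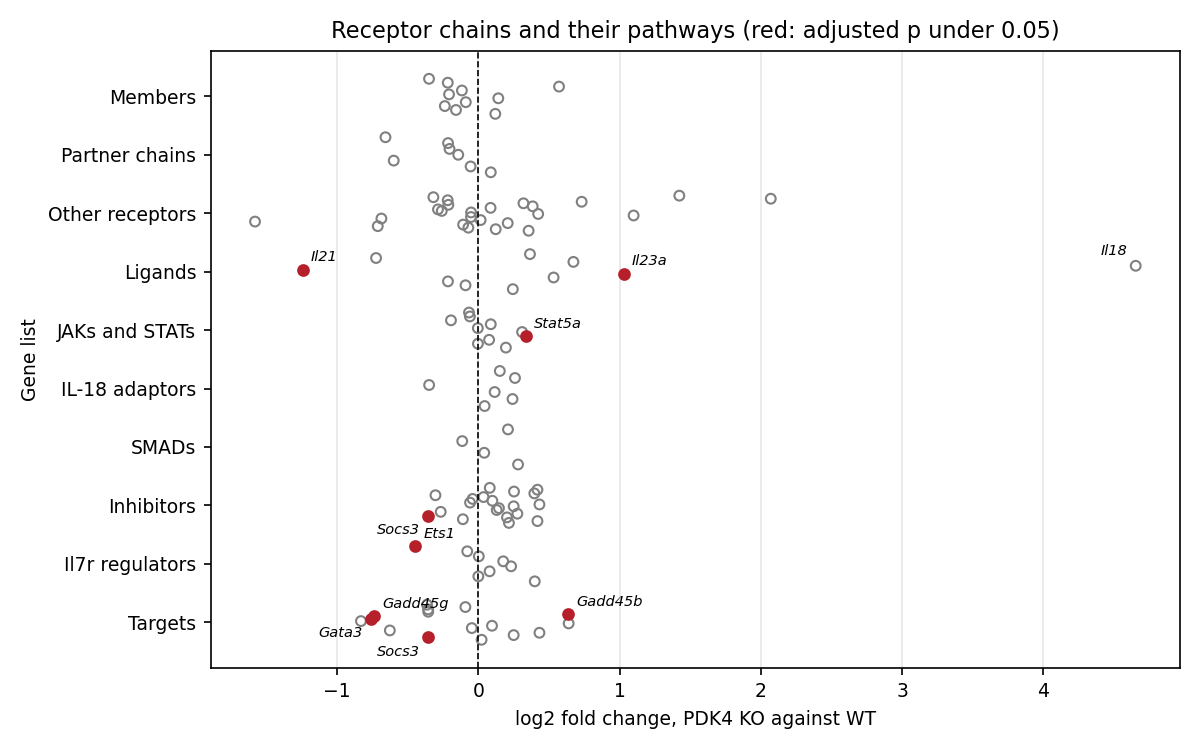
Log2 fold change, PDK4 KO against WT, of every tested gene in the receptor list and in the lists of its pathway, with filled red points for an adjusted p under 0.05 and open points for the rest. Red points are absent among the members, their partner chains and the other receptors and appear among ligands (Il21, Il23a), JAKs and STATs (Stat5a), inhibitors (Socs3), Il7r regulators (Ets1) and targets (Gata3, Gadd45b, Gadd45g, Socs3). The open ligand point at the far right is Il18, fitted against 0 and 1 counts in WT.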

How the data were processed

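RNA was measured in 2 WT and 2 PDK4 KO libraries, each made from 500 ng of total RNA with a Lexogen QuantSeq kit, per the labels' protocols. The authors deposited raw counts, 1 table per library with 23282 gene rows. The build mm10 and the tools Bowtie2 and edgeR are named, per the submitters' processing notes, without their roles. Counter, annotation and strand use were not given in the sources used here. For 35 symbols with several rows, counts were added up. The listed markers Ighm, Ighd, Igkc and Trac were not among the 23238 symbols, so no levels can be given for them.

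Counts were tested with edgeR 4.0.16 in R 4.3.3 (TMM, filterByExpr, quasi-likelihood F test, two-sided, genotype as the only term), with Benjamini-Hochberg adjustment over 11464 genes. "Rose" and "fell" mean an adjusted p under 0.05. The SE is the log2 fold change divided by the square root of F, and 95% intervals use the fit's degrees of freedom. Levels are TMM-normalised CPM with SD over n = 2. Floors of 3 counts cover counting error only, as reads were not collapsed to molecules in the sources used here. Replicates of a genotype differed beyond sampling noise (chi-square per degree of freedom of 5.48 and 5.53). DESeq2 1.42.0 and limma-voom (limma 3.58.1) served as alternatives, with other scalings, filters, a replicate block and each library left out. Tests were tried on simulated data. Members and gene lists were chosen with earlier results of these data known. The text names all members, the IL-2 receptor chains, and list genes past the test or among the 4 with the smallest p, and some further genes (Il18rap, Il23r, Serbp1, Cd4, Cd3e and genes at 0 or few counts) chosen after their values were seen. No member passed, so no genes were named for likeness to one. Positions and sequences were read from GENCODE vM21, whose GRCm38 assembly is the same as mm10.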

Additional observations from a re-analysis of the deposited data

How the results depend on the processing

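Of 13 alternatives, the count of receptor chains lower past the test was 1 with the stricter filter (Il12rb1), where fewer genes are adjusted over and Il6st, Il18r1 and Tgfbr1 are left out. It was 0 in the other alternatives, including 0 to 0 with a library left out, and the count of chains higher was 0 throughout. Over all genes, 166 rose and 139 fell, against 92 to 148 and 75 to 145 with 1 library left out, the lowest without PDK4 KO replicate 1 (92 and 78) and without WT replicate 2 (109 and 75). Signs of some uncalled chains turned with single libraries. Among them was Il2rb, which was not low, at 534 ± 67.2 CPM in WT and 512 ± 21.4 CPM in PDK4 KO. With 1 library left out, the log2 fold change ran from -0.11 to 0.42 for Il6ra (below 0 without WT replicate 2 or PDK4 KO replicate 1), from -0.28 to 0.13 for Il6st (above 0 without WT replicate 1 or PDK4 KO replicate 1), from -0.41 to 0.00722 for Il12rb2 (above 0 without WT replicate 1) and from -0.18 to 0.072 for Il2rb (above 0 without WT replicate 2). Il7r, Il4ra, Il21r, Il12rb1, Il18r1, Tgfbr1 and Tgfbr2 kept their sign in every alternative that tested them, but not their size. With 1 library left out, Il7r ran from -0.39 to -0.10, Il21r from -0.17 to -0.06, Il18r1 from 0.14 to 0.99 and Tgfbr1 from -0.25 to -0.07, and of other uncalled genes Ebi3 from 0.19 to 0.57, Stat4 from 0.13 to 0.47, Jak3 from -0.30 to -0.09 and Irak2 from 0.12 to 0.39. Il2ra was called in 7 of 13 alternatives (adjusted p from 0.0146 to 0.37), and Il15ra only with no filter (0.0493). Pmepa1 was called only without WT replicate 1 (0.0403). The labels do not say that replicate numbers pair libraries, and deviations from the group means of same-numbered libraries had a correlation of 0.01 over genes. With the replicate block, 142 genes rose and 118 fell, and 0 of the 10 chains passed, while Il2ra of the IL-2 receptor did (0.0469). The 6 chains under 30 CPM had 95% intervals that include the value of Il7r (-0.24) as well as 0. Of 390 recomputed counts of calls in gene lists, 355 stayed within 1.5 times, 18 were lower and 17 higher.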
